A study of Mus musculus with 6 samples.

Results

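The genes described here are the myogenic transcription factors *Pax7*, *Myf5*, *Myod1*, and *Myog*, together with *Msc* (musculin), in regenerating mouse muscle. They were chosen by gene symbol from the single-cell data, 5 genes of the 12436 for which values are listed. Tibialis anterior muscle (TAM) was taken from male mice aged 3 to 5 months that carried the Fucci2aR cell cycle reporter allele (B6;129 by genotype label, with the allele Gt(ROSA)26Sor<tm1(Fucci2aR)Jkn), and the study's methods state that the animals used for sequencing lacked Cre. Control mice received a matched diet, and hypothyroid mice received an iodine-deficient diet with propylthiouracil (PTU, 0.15% w/w), a blocker of thyroid hormone synthesis. Muscle was studied uninjured (0 dpi) or at 5 or 14 days after injury (dpi) with cardiotoxin (CTX, 50 μg/ml), a snake venom toxin that destroys fibers, which was injected into the right TAM. Each of the 6 combinations of diet and day was 1 library of single cells from 3 pooled mice, which leaves groups without replicates, and differences between libraries were not tested.

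Muscle stem cells lie on the surface of muscle fibers and repair them after injury. PAX7, a paired-box factor, marks these stem cells and acts upstream of a family of basic helix-loop-helix (bHLH) factors, in which MYF5 and MYOD1 commit a cell to the muscle lineage and myogenin, the product of *Myog*, drives the exit from the cell cycle and the fusion into fibers. These bHLH factors pair with E proteins and bind short DNA letters called E-boxes. MSC is a bHLH repressor that was described in activated B cells and in muscle, where it can bind E-boxes in place of MYOD1.

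In the deposited files (build mm39, gene models of GENCODE), all 5 are protein-coding genes. *Pax7* (ENSMUSG00000028736.14) lies at chr4:139464373-139560840 on the minus strand, with 9 exons in its canonical transcript. *Myf5* (ENSMUSG00000000435.2) lies at chr10:107318769-107321996 on the minus strand with 3 exons, *Myod1* (ENSMUSG00000009471.5) at chr7:46025898-46028524 on the plus strand with 3 exons, *Myog* (ENSMUSG00000026459.6) at chr1:134217727-134220287 on the plus strand with 3 exons, and *Msc* (ENSMUSG00000025930.7) at chr1:14823570-14826217 on the minus strand with 2 exons. Promoter sequence is printed for *Myog* and *Myf5*, since no cell at 5 dpi held UMIs of both once cells were set to equal depth, as described further on. The sequences are from RefSeq (GRCm38.p6 table, which holds 3 of the 5 genes), were located in GRCm39 by exact match, and are written 5′ to 3′ on the strand of the gene. Bases inside the gene were left off by another GENCODE annotation than that of the positions above. The *Myog* window thus ends short of the start given for *Myog*, and the bases between were not searched. The *Myf5* window takes in the first base of *Myf5* as placed above. Capitals mark the E-box letters CANNTG and, in *Myog*, a MEF2 motif with its last base left free, MEF2 factors being partners that cooperate with the myogenic bHLH factors. Both were searched on both strands and do not overlap each other.
Myog, GRCm39 chr1:134217492-134217706, plus strand: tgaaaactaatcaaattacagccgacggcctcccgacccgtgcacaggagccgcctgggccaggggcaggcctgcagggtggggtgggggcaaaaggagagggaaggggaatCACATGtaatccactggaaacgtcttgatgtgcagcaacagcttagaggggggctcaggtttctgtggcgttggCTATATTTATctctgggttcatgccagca
Myf5, GRCm39 chr10:107321996-107322245, minus strand: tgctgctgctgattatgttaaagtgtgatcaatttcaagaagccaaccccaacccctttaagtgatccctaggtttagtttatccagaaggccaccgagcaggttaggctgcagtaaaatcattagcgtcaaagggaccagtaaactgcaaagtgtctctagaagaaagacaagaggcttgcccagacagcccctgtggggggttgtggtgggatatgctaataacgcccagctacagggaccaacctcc
The *Myog* window of 215 bases held 1 E-box and 1 MEF2 motif, and the *Myf5* window of 250 bases held neither. Of 32851 mouse promoter windows of 215 bases, 61.4% held an E-box and 6.15% held such a MEF2 motif, and at 250 bases the shares were 66.2% and 7.03%. E-box letters are thus common in such windows, and these matches are descriptions of the letters only. The annotated *Pax7* window lies inside the gene and is not shown.

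The first run of columns in each file, up to the point where the barcodes left alphabetical order, held 11207 of the 20269 cell columns. These were 1152, 2428, and 3294 control cells and 528, 2155, and 1650 hypothyroid cells at 0, 5, and 14 dpi, with 2283704 to 23496414 unique molecular identifiers (UMIs, each standing for a captured RNA molecule) per library and medians of 3634 to 8055 UMIs per cell. Between 72 and 1079 cells per library held over 8000 UMIs, the upper limit that the study's methods give for the filter on cells. Of the control 5 dpi cells, 528 also stood in the hypothyroid 0 dpi file, and 1152 hypothyroid 14 dpi cells also stood in the control 0 dpi file, so results at 5 and 14 dpi that rest on them are also given without these cells. Apart from this, 12 barcodes occurred in the first runs of more than 1 library, with different counts each time. Cells were clustered without the 5 genes, and clusters were named from marker lists, so the names are rebuilt here and written with "-like". No doublet caller was run and no doublets were removed.

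Myogenic progenitor-like cells were 438 of the 11207 cells. They numbered 34, 93, and 78 in the control libraries and 18, 173, and 42 in the hypothyroid libraries at 0, 5, and 14 dpi. Of these, 17 of the 93 and 28 of the 42 were the cells that also stood in another file. Between 10 and 13 of the 13 measured progenitor markers had UMIs in each library, with a summed level of 2270 to 4611 CPM (UMIs of the genes scaled to the same total in every pool), and *Hes6* and *Myf6* were at 0 in both libraries at 0 dpi. The sum was 4611, 4064, and 4513 CPM in control and 4144, 2270, and 3161 CPM in hypothyroid pools at 0, 5, and 14 dpi. The pools of the diets thus differed in these markers, most at 5 dpi, and the part of this in the diet ratios below was not tested. Their median depth was 4443, 10493, and 4798 UMIs in control cells and 6790, 14052, and 8399.5 in hypothyroid cells, in the order of the days. Endothelial markers were summed to 8.99 to 86.5 CPM in 5 of the 6 pools of progenitor-like cells and to 1166 CPM in the hypothyroid 14 dpi pool. There *Fabp4*, a fatty acid binding protein gene that fat cells also express, made up 1140 CPM (527 UMIs in 5 cells), the other 7 markers came to 25.96 CPM, and *Kdr* and *Emcn* were at 0. Without the cells found in another file, *Fabp4* was at 107 CPM (15 UMIs) and the other 7 at 57.1 CPM (8 UMIs). Levels below are UMIs summed over the progenitor-like cells of a library in CPM, with 95% intervals that are exact Poisson, and ratios of CPM carry exact binomial 95% intervals. These intervals cover counting error only, not the spread between cells or between mice. With 0 UMIs, the level of 3 UMIs is given as the limit that such a count allows.

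*Myod1* was lower in hypothyroid than in control progenitor-like cells on all 3 days. *Pax7* and *Myog* were lower in hypothyroid cells at 5 dpi, *Myog* only with cells over 8000 UMIs kept in, *Myf5* was slightly higher there, and *Msc* was higher in hypothyroid cells before injury and lower after it, at 14 dpi only with the cells found in another file. Over time, *Myod1* and *Msc* were high at 0 dpi, low at 5 dpi, and intermediate at 14 dpi in both diets, whereas nearly all *Myog* UMIs of these cells came from 5 dpi. A difference was called where the ratio was at least 2-fold and the higher pool had at least 20 UMIs. By that rule 2 of 3 genes were called at 0 dpi, where 14% of all 1462 genes tested were called either way (6.02% higher and 8% lower in hypothyroid cells). At 5 dpi 3 of 5 were called, all lower in hypothyroid cells, beside 13.1% of 8642 genes, with 9.85% lower and 3.3% higher. At 14 dpi 2 of 4 were called, beside 15% of 3972 genes (6.92% higher and 8.06% lower). The median ratio of all genes tested was 0.929, 0.811, and 0.888 at 0, 5, and 14 dpi.

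**Figure D1:**
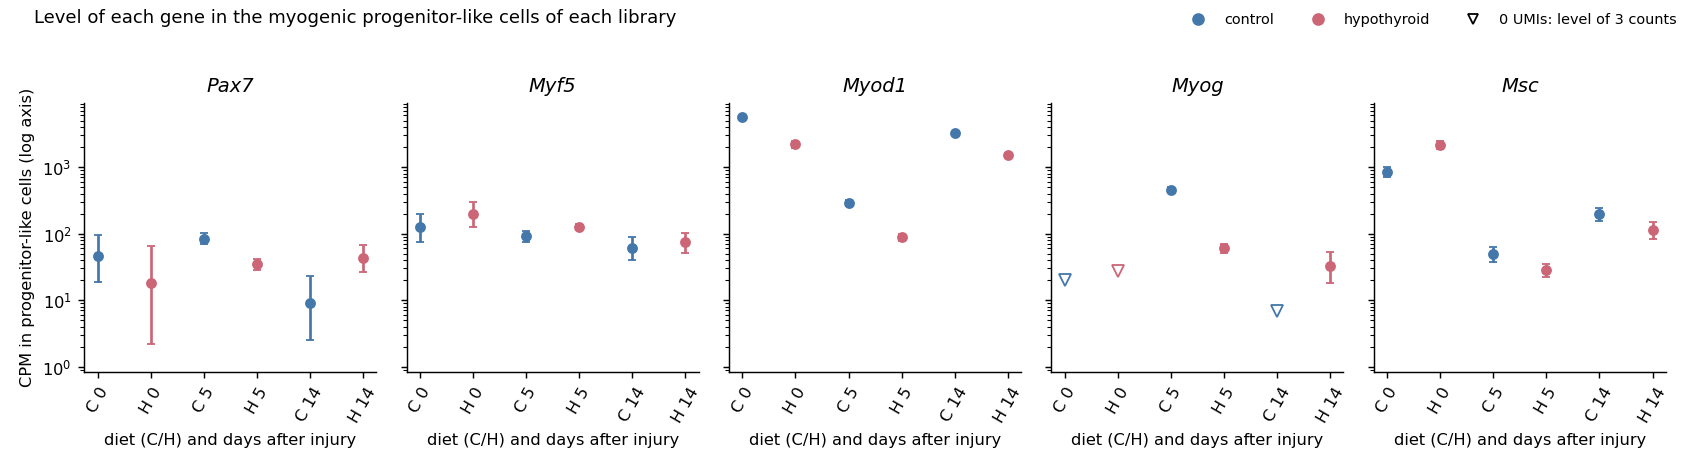
Level of each gene in myogenic progenitor-like cells, in CPM on a log axis, for the control and hypothyroid libraries at 0, 5, and 14 dpi. Points are the single library of each group, bars are exact Poisson 95% intervals, and open triangles stand at the level of 3 UMIs where the count was 0; *Myog* had 0 UMIs in 3 of the 6 libraries.

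*Pax7* was sparse in all libraries. In control progenitor-like cells its level was 46.4 CPM (18.6 to 95.5, 7 UMIs) at 0 dpi, 84.3 CPM (68.6 to 102.5, 100 UMIs) at 5 dpi, and 9.11 CPM (2.48 to 23.3, 4 UMIs) at 14 dpi. In hypothyroid cells it was 18.0 CPM (2.18 to 64.9, 2 UMIs), 34.3 CPM (27.9 to 41.8, 98 UMIs), and 43.3 CPM (26.4 to 66.8, 20 UMIs). The control library was thus highest at 5 dpi and lowest at 14 dpi, while the hypothyroid library at 14 dpi was not below that at 5 dpi, and the intervals of the diets did not overlap at 5 or at 14 dpi. Within each diet the intervals of 0 and 5 dpi overlapped. The ratio of hypothyroid to control was 0.388 (0.0393 to 2.04) at 0 dpi, which leaves either direction possible at this depth. At 5 dpi it was 0.407 (0.305 to 0.544), and 0.379 (0.281 to 0.513) without the cells found in another file. At 14 dpi it was 4.75 (1.59 to 19.1), from 9 cells with a *Pax7* UMI of 42 against 3 of 78. Without the cells found in another file, 5 UMIs in 14 cells stood against 4 in 78, a ratio of 3.92 (0.844 to 19.8), whose interval reached below 1. Without cells that held a UMI of at least 2 endothelial markers the ratio was 5.17 (1.73 to 20.8).

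*Myf5*, the earlier of the determination factors, varied least between libraries. It was 126 CPM (75.8 to 197, 19 UMIs), 91.9 CPM (75.4 to 111, 109 UMIs), and 61.5 CPM (40.5 to 89.5, 27 UMIs) in control progenitor-like cells at 0, 5, and 14 dpi. In hypothyroid cells it was 198 CPM (124 to 299, 22 UMIs), 126 CPM (113 to 139, 359 UMIs), and 73.6 CPM (50.9 to 103, 34 UMIs). The levels stood in the same order of days in both diets, although the intervals of neighbouring days overlapped except for hypothyroid 5 and 14 dpi, and at 5 dpi the hypothyroid interval lay just above that of control. The ratio of hypothyroid to control was 1.57 (0.812 to 3.07), 1.37 (1.10 to 1.71), and 1.20 (0.701 to 2.06). None of these reached 2-fold, and at 0 and 14 dpi no difference was detectable at this depth.

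*Myod1*, which commits cells to the lineage and is kept low in quiescent stem cells, had the most UMIs of the 5 genes. In control progenitor-like cells it was 5598 CPM (5227 to 5988, 845 UMIs) at 0 dpi, 287 CPM (257 to 319, 340 UMIs) at 5 dpi, and 3222 CPM (3056 to 3395, 1415 UMIs) at 14 dpi. In hypothyroid cells it was 2211 CPM (1943 to 2505, 246 UMIs), 88.2 CPM (77.7 to 99.8, 252 UMIs), and 1536 CPM (1425 to 1653, 710 UMIs). Both diets had their highest level in uninjured muscle and their lowest at 5 dpi, and the hypothyroid interval lay below the control interval on each day. The ratio of hypothyroid to control was 0.395 (0.341 to 0.456), 0.308 (0.261 to 0.364), and 0.477 (0.435 to 0.522) at 0, 5, and 14 dpi. Between 12 and 67 cells per library had a *Myod1* UMI, and single cells held up to 113. Among immediate early and stress genes at 0 dpi, 0 of 11 were at least 2-fold higher and 4 were lower, with *Fos* at 0.176, *Jun* at 0.253, and *Jund* at 1.85. At 5 dpi 2 of 16 were higher, with *Hspa1a* at 7.78 (14.4 without the cells found in another file), and 1 was lower. At 14 dpi 3 of 12 were higher and 1 was lower, with *Fos* at 5.03 and *Ier3* at 0.227, and without the cells found in another file 6 were higher and 1 lower, with *Fos* at 8.50. Of all genes tested, 6.02% were higher and 8% lower in hypothyroid cells at 0 dpi, 3.3% and 9.85% at 5 dpi, and 6.92% and 8.06% at 14 dpi. The part of the immediate early and stress genes in the *Myod1* difference was not tested.

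*Myog*, the differentiation factor, was present in progenitor-like cells almost only at 5 dpi. Over all cells of a library, control muscle had 36.4 CPM (562 UMIs) at 5 dpi and 5.95 CPM (98 UMIs) at 14 dpi. Hypothyroid muscle had 11.3 CPM (265 UMIs) and 17.9 CPM (235 UMIs). At 14 dpi endothelial-like cells held 172 of the 235 hypothyroid and 62 of the 98 control UMIs. The hypothyroid endothelial-like cell with the most held 124. Without the cells found in another file, hypothyroid endothelial-like cells held 126 UMIs at 14 dpi. The levels over all cells at 14 dpi thus came mostly from outside the progenitor-like cells. Control progenitor-like cells had 0 UMIs at 0 dpi, which allows up to 19.9 CPM, then 457 CPM (419 to 497, 542 UMIs) at 5 dpi, and 0 UMIs at 14 dpi, which allows up to 6.83 CPM. Hypothyroid cells had 0 UMIs at 0 dpi, which allows up to 27.0 CPM, 60.2 CPM (51.6 to 69.9, 172 UMIs) at 5 dpi, and 32.5 CPM (18.2 to 53.5, 15 UMIs in 2 cells) at 14 dpi. The intervals of the diets were far apart at 5 dpi, with the control library higher. The ratio there was 0.132 (0.110 to 0.157), and 0.135 (0.113 to 0.162) without the cells found in another file. These UMIs came from few cells, namely 18 of 93 control and 20 of 173 hypothyroid cells, and the cell with the most held 140 of the 542 UMIs (25.8%) in control and 59 of the 172 (34.3%) in hypothyroid muscle. Leaving out that cell in each library gave 0.116. In control muscle 9 cells held 95.2% of the *Myog* UMIs, and in hypothyroid muscle 17 cells held 98.3%.

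The difference in *Myog* at 5 dpi rested on deeply sequenced cells. With cells over 8000 UMIs left out, as the stated filter of the study would do, 34 cells remained in each library, with 22 hypothyroid and 19 control *Myog* UMIs and a ratio of 1.01 (0.521 to 1.97). Of the progenitor-like cells at 5 dpi, 59 of 93 control and 139 of 173 hypothyroid cells were above that limit. *Pax7* at 5 dpi kept a ratio of 0.377 under the same limit. At 14 dpi the hypothyroid *Myog* level was at least 4.75-fold higher than control, counted against 3 UMIs. Both libraries had 0 *Myog* UMIs at 14 dpi without the cells found in another file, and 5 hypothyroid UMIs against 0 remained without cells that held at least 2 endothelial markers. The part of the cells with *Fabp4* in this difference was not tested.

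*Msc*, the bHLH repressor, followed the days as *Myod1* did but not the diets. Its level was 855 CPM (713 to 1015, 129 UMIs), 48.9 CPM (37.1 to 63.2, 58 UMIs), and 196 CPM (157 to 242, 86 UMIs) in control progenitor-like cells. In hypothyroid cells it was 2157 CPM (1893 to 2448, 240 UMIs), 28.0 CPM (22.2 to 34.9, 80 UMIs), and 112 CPM (84.0 to 148, 52 UMIs). Uninjured hypothyroid muscle was the highest of the 6 libraries, and the hypothyroid intervals lay below those of control after injury. The ratio of hypothyroid to control was 2.52 (2.03 to 3.15) at 0 dpi, 0.573 (0.404 to 0.818) at 5 dpi, and 0.574 (0.399 to 0.820) at 14 dpi. The last was 1.06 (0.669 to 1.63, 29 against 86 UMIs) without the cells found in another file, 1.16 without cells over 8000 UMIs, and 0.743 (0.508 to 1.08) without cells that held at least 2 endothelial markers. At 0 dpi the count rested on 13 hypothyroid and 15 control cells with a UMI, and 64 of the 240 hypothyroid UMIs came from 1 cell.

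**Figure D2:**
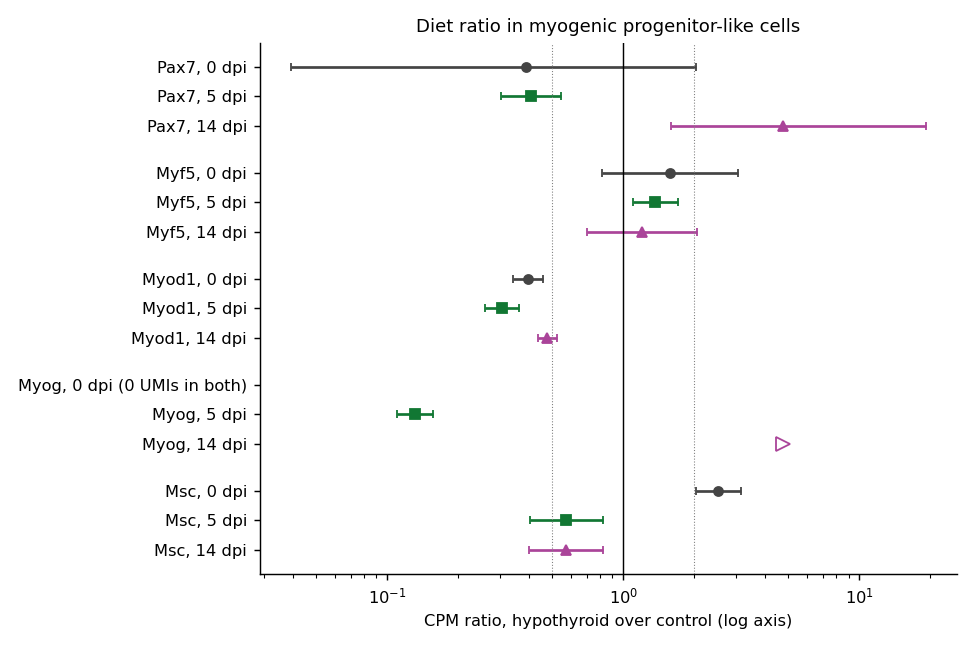
Ratio of hypothyroid to control CPM in myogenic progenitor-like cells for each gene at 0, 5, and 14 dpi, on a log axis with dotted lines at 2-fold either way. Bars are exact binomial 95% intervals, and the open triangle is the lower bound for *Myog* at 14 dpi; *Myod1* lies below 1 on all 3 days, at 0.395, 0.308, and 0.477, and *Myf5* lies above 1 on all 3, at 1.57, 1.37, and 1.20.

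The days were compared within each diet by the same rule. From 0 to 5 dpi, 3 of 5 were called in control muscle, beside 44.5% of all genes tested (31.6% higher and 12.9% lower), and 3 of 5 in hypothyroid muscle, beside 35.1% (17.2% higher and 17.9% lower). In both diets *Myod1* and *Msc* were lower and *Myog* higher at 5 dpi. The *Myod1* ratio of 5 over 0 dpi was 0.0512 (0.0450 to 0.0581) in control and 0.0399 (0.0333 to 0.0478) in hypothyroid muscle, and that of *Msc* was 0.0572 (0.0412 to 0.0786) and 0.0130 (0.00995 to 0.0168). *Myog* at 5 dpi was at least 23.0-fold higher than at 0 dpi in control muscle and at least 2.23-fold higher in hypothyroid muscle. From 5 to 14 dpi, 4 of 5 were called in control muscle, beside 36.2% of genes (9.46% higher and 26.7% lower), and 2 of 5 in hypothyroid muscle, beside 21.1% (7.91% higher and 13.2% lower). *Myod1* was 11.2-fold (9.98 to 12.7) and 17.4-fold (15.1 to 20.2) higher at 14 than at 5 dpi, and *Msc* 4.01-fold (2.84 to 5.69) and 4.02-fold (2.78 to 5.77), in control and hypothyroid muscle. The ratios of *Pax7* and *Myog* stood apart between the diets in this step, that of *Myog* only with the cells found in another file kept in. Without those cells each diet gave only an upper bound for *Myog*, which shows no difference. In control muscle the 14 over 5 dpi ratio of *Pax7* was 0.108 (0.0289 to 0.286) and that of *Myog* at most 0.0150, whereas in hypothyroid muscle they were 1.26 and 0.539 (0.295 to 0.914). With the cells found in another file left out, the hypothyroid ratio was 1.04 (0.331 to 2.51) for *Pax7*, at most 0.356 for *Myog*, and 7.395 (4.66 to 11.4) for *Msc*. The difference between the diets in these steps was not tested. Comparisons of 5 dpi with 0 and with 14 dpi share the 5 dpi library.

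The progenitor-like cells formed 4 sub-clusters, and the days were held by different ones. The sub-cluster led by *Chrdl2* and *Erfe* (67 cells) held 30 of 34 control and 17 of 18 hypothyroid cells at 0 dpi. That led by *Wincr1* and *Erfe* (91 cells) held 66 of 78 control and 20 of 42 hypothyroid cells at 14 dpi, and those led by *Cdh15* and *Fgfr4* (144 cells) and by *Chrna1* and *Cdkn2a* (136 cells) held 50 and 32 of 93 control and 80 and 90 of 173 hypothyroid cells at 5 dpi. *Myod1* stood at 4252 and 3277 CPM in the first pair and at 111 and 229 CPM in the second. *Msc* stood at 1272, 218, 56.7, and 18.9 CPM in the same order, and *Pax7* at 19.8, 3.82, 91.9, and 25.5 CPM. *Myog* was at 0 in the first pair and was concentrated in the *Cdh15* and *Fgfr4* sub-cluster, at 391 CPM (655 UMIs), with 27.4 CPM (74 UMIs) in that led by *Chrna1* and *Cdkn2a*. Within the *Chrdl2* and *Erfe* sub-cluster, the 10 control cells of 5 dpi had *Myod1* at 5477 CPM (144 UMIs) and the 30 of 0 dpi at 5698 CPM. The few control cells of 5 dpi that fell into this sub-cluster were thus close to uninjured cells in *Myod1*.

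The diet ratio of *Myod1* was below 1 in each of the 4 sub-clusters on the day that sub-cluster mostly held. In the *Chrdl2* and *Erfe* cells at 0 dpi the *Myod1* ratio was 0.378 (0.325 to 0.439) and the *Msc* ratio 2.35 (1.89 to 2.94). At 5 dpi the *Cdh15* and *Fgfr4* cells gave 0.340 (0.240 to 0.479) for *Myod1*, 0.416 (0.289 to 0.594) for *Pax7*, 1.35 (1.04 to 1.78) for *Myf5*, and 0.214 (0.179 to 0.256) for *Myog*. In the *Chrna1* and *Cdkn2a* cells of the same day the ratios were 0.501 (0.387 to 0.650) for *Myod1*, 0.690 (0.394 to 1.25) for *Pax7*, 1.997 (1.33 to 3.11) for *Myf5*, and 0.0336 (0.0130 to 0.0735, 7 against 62 UMIs) for *Myog*. *Msc* did not differ detectably between diets in the former (0.893, 0.576 to 1.40) and was lower in hypothyroid cells in the latter (0.473, 0.249 to 0.925). At 14 dpi the *Wincr1* and *Erfe* cells gave 0.572 (0.508 to 0.642) for *Myod1* and 0.814 (0.527 to 1.23) for *Msc*. These cells held 2 hypothyroid and 0 control *Pax7* UMIs and no *Myog* UMI, so the higher *Pax7* and *Myog* of the hypothyroid 14 dpi library came mostly from other sub-clusters. Without the cells found in another file, *Myod1* was at 0.558 (0.467 to 0.663) and *Msc* at 1.21 (0.701 to 1.996) in these cells, from 7 hypothyroid and 66 control cells, and neither had a *Pax7* UMI. The *Cdh15* and *Fgfr4* cells of 5 dpi then gave 0.443 (0.2999 to 0.653) for *Myod1*, 0.378 for *Pax7*, and 0.220 for *Myog*, and the *Chrna1* and *Cdkn2a* cells gave 0.466, 0.629, and 0.0275.

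To compare how many cells held a transcript, each cell with at least 2000 UMIs was thinned to 2000, which kept 33, 92, and 70 control and 18, 173, and 42 hypothyroid progenitor-like cells at 0, 5, and 14 dpi. *Myod1* was found in 78.8%, 22.8%, and 80.0% of control cells and in 61.1%, 10.98%, and 61.9% of hypothyroid cells. Exact binomial intervals were 14.7% to 32.8% and 6.74% to 16.6% at 5 dpi, and they overlapped between diets on every day. *Msc* was found in 36.4%, 10.9%, and 24.3% of control and in 66.7%, 8.67%, and 11.9% of hypothyroid cells. *Pax7* was found in 9.09%, 15.2%, and 1.43% of control and in 5.56%, 7.51%, and 7.14% of hypothyroid cells. *Myf5* was found in 9.09%, 13.04%, and 11.4% of control and in 16.7%, 23.1%, and 14.3% of hypothyroid cells. *Myog* was found in 15.2% (8.58% to 24.2%) of control and 5.78% (2.81% to 10.4%) of hypothyroid cells at 5 dpi, and in no thinned cell of the other 4 libraries, where 0 cells allow up to 4.29% to 16.7%. For comparison, T/NK-like cells, which are not muscle cells, held *Myod1* or *Msc* in 0.414%, *Myf5* or *Myog* in 0.207%, and *Pax7* in 0% of 483 cells at the same thinned depth. Before thinning, their median depth was 2398 UMIs. Without thinning, shares in progenitor-like cells at 5 dpi were higher, at 46.2% and 35.3% for *Pax7*, 40.9% and 58.4% for *Myf5*, 45.2% and 34.1% for *Myod1*, 19.4% and 11.6% for *Myog*, and 30.1% and 23.7% for *Msc* in control and hypothyroid cells. Without the cells found in another file, the 76 thinned control cells at 5 dpi held *Pax7* in 14.5%, *Myod1* in 22.4%, and *Myog* in 14.5%, and the 14 hypothyroid cells at 14 dpi held *Pax7* in 14.3%, *Myod1* in 71.4%, and *Myog* in 0%.

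**Figure D3:**
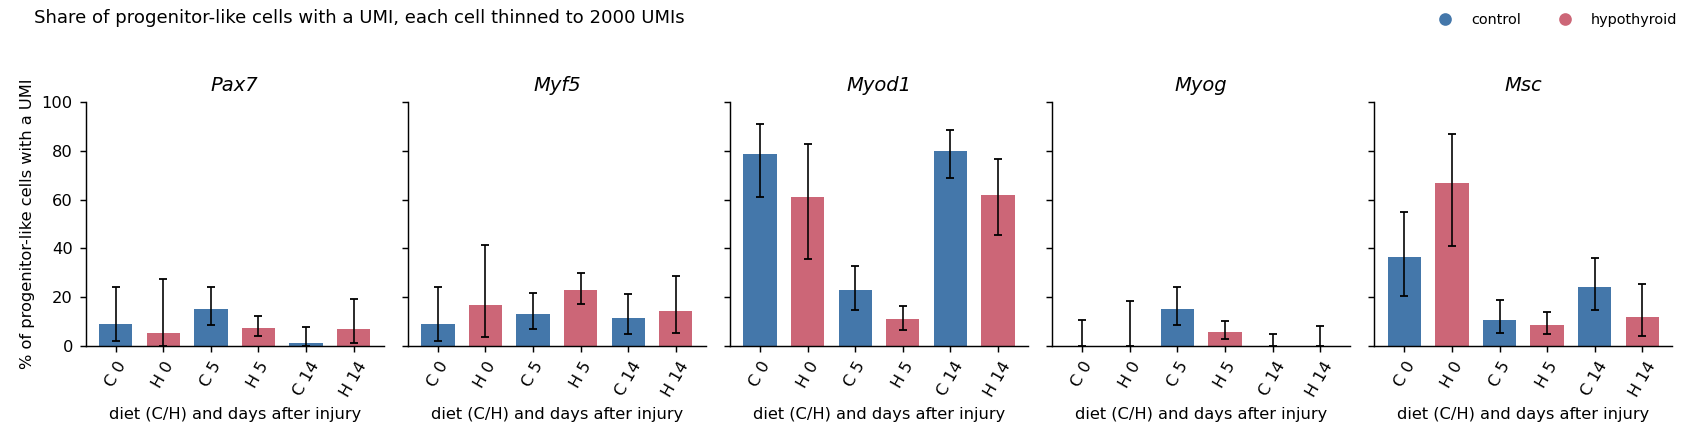
Percent of myogenic progenitor-like cells with a UMI of each gene after every cell was thinned to 2000 UMIs, for control and hypothyroid libraries at 0, 5, and 14 dpi. Error bars are exact binomial (Clopper-Pearson) 95% intervals; *Myod1* is at 78.8% at 0 dpi and 22.8% at 5 dpi in control cells, and *Myog* is found at 5 dpi only at this depth.

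At equal depth, most progenitor-like cells at 5 dpi held few of the 5 transcripts. Of the thinned cells at 5 dpi, 42.4% in control and 54.3% in hypothyroid muscle held none of the 5, and 18.5% and 9.83% held at least 2. In uninjured muscle 12.1% and 5.56% held none, and 45.5% and 44.4% held at least 2. At 14 dpi the shares with at least 2 were 25.7% in control and 21.4% in hypothyroid cells. Of the cells found in no other file, 43.4% of 76 control cells at 5 dpi held none and 19.7% at least 2, and 4 of 14 hypothyroid cells at 14 dpi held at least 2. *Myod1* with *Msc* was the pair that uninjured cells held most often, in 10 of 33 control cells, and in 8 of 18 hypothyroid cells. At 14 dpi the same pair was found in 13 of 70 control and 5 of 42 hypothyroid cells, or 2 of the 14 found in no other file. No thinned cell held more than 3 of the genes, and no cell held all 5 even without thinning.

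At 5 dpi the transcripts were found together in some pairs and not in others. *Myf5*, the early factor, and *Myog*, the late one, shared no thinned cell, with 12 *Myf5* and 14 *Myog* cells in control and 40 and 10 in hypothyroid muscle. At full depth 4 of 18 control and 9 of 20 hypothyroid *Myog* cells held a *Myf5* UMI, so the absence of shared cells held at the thinned depth only. *Myog* cells held *Myod1* in 5 of 14 (35.7%) cases in control muscle, against 16 of 78 (20.5%) of the other cells, and in 3 of 10 (30%) against 16 of 163 (9.82%) in hypothyroid muscle. *Pax7* cells held *Myf5* in 3 of 14 (21.4%) cases against 9 of 78 (11.5%) in control, and in 5 of 13 (38.5%) against 35 of 160 (21.9%) in hypothyroid muscle. *Pax7* and *Myod1*, the upstream factor and its downstream partner, shared 0 of 14 *Pax7* cells in control, where 21 of the 78 cells without *Pax7* (26.9%) held *Myod1*. In hypothyroid muscle 1 of 13 *Pax7* cells held *Myod1*, against 18 of 160. At full depth 13 of 43 control *Pax7* cells held *Myod1*, against 29 of 50 cells without *Pax7*. In hypothyroid muscle these were 18 of 61 against 41 of 112, so the absence in control cells held at the thinned depth only. *Myog* and *Msc* shared no thinned cell in either diet, while at full depth 0 of 18 control and 4 of 20 hypothyroid *Myog* cells held *Msc*. In the 76 control cells found in no other file, *Myod1* was held by 4 of 11 *Myog* cells against 13 of 65 others, *Myf5* by 2 of 11 *Pax7* cells against 8 of 65, and *Myod1* by 0 of 11 *Pax7* cells against 17 of 65. These counts are small, and none of the pairs was tested.

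The *Myog* cells of 5 dpi carried the differentiation program. After thinning, differentiation and fusion genes were summed to 19857 CPM in the 14 control cells with a *Myog* UMI and to 4179 CPM in the 78 without, a ratio of 4.75 (4.24 to 5.33). In hypothyroid muscle they stood at 8950 CPM in 10 cells and 2313 CPM in 163, a ratio of 3.87 (3.27 to 4.56). Of the list's genes with at least 10 UMIs, 14 of 20 were at least 2-fold higher and 0 lower in the *Myog* cells of control muscle, beside 10.7% higher and 14.5% lower of 3394 genes tested. In hypothyroid muscle 10 of 18 were higher and 0 lower, beside 14.8% higher and 6.06% lower of 4640 genes. *Actc1*, the cardiac actin gene that is re-expressed in new fibers, had 29 UMIs in the control *Myog* cells and 0 in the others, at least 53.9-fold higher, and *Tnnt2*, a troponin T gene, was 31.2-fold (11.9 to 103) higher. In hypothyroid *Myog* cells *Ttn*, which encodes titin, was 11.6-fold (7.04 to 19.0) higher, and *Acta1*, the skeletal actin gene, was 13.6-fold (7.12 to 25.7) higher. Proliferation genes were lower in the control *Myog* cells, at 857 against 2115 CPM (ratio 0.405) with 0 higher and 8 lower of 11, and stood at 1150 against 1301 CPM (0.884) in hypothyroid *Myog* cells, with 3 higher and 1 lower of 12. Stem cell genes had a summed ratio of 0.612 in control muscle, with 1 higher and 3 lower of 14, and of 1.16 in hypothyroid muscle, with 5 higher and 0 lower of 13. When the cells found in another file were left out, 11 control *Myog* cells were left, with a ratio of 4.89 for differentiation and fusion genes, 15 of 18 of them higher, and 0.369 for proliferation genes, 5 of 10 of them lower.

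**Figure D4:**
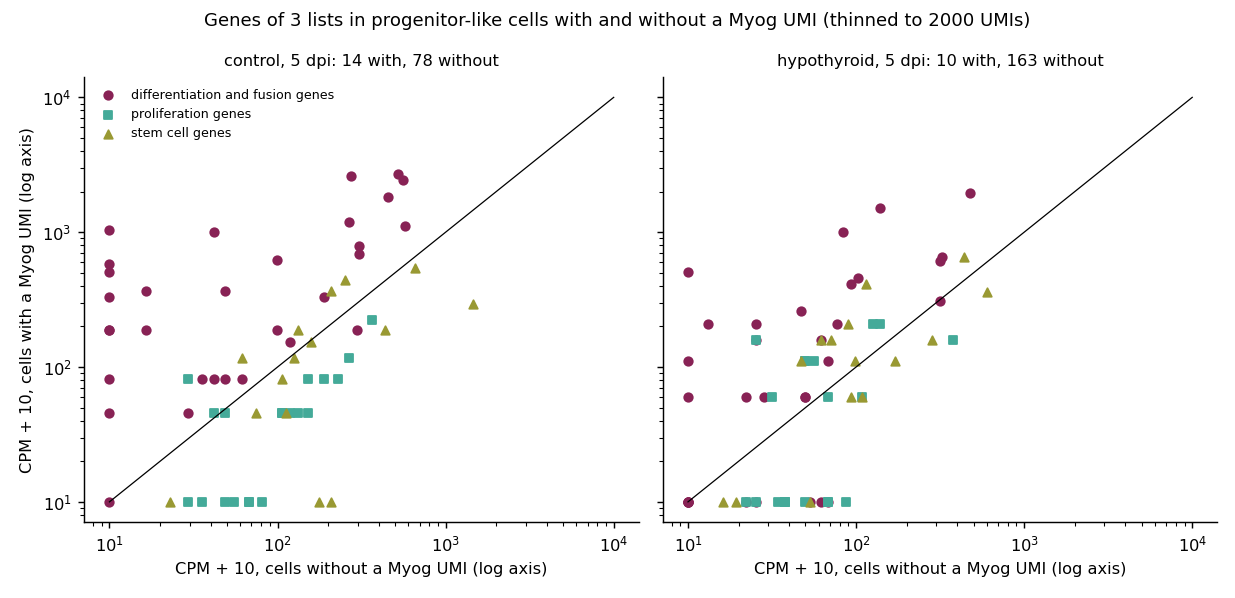
Levels of the genes of 3 lists in thinned progenitor-like cells at 5 dpi with a *Myog* UMI (vertical axis) against those without (horizontal axis), in CPM + 10 on log axes, for control and hypothyroid muscle. Each point is a gene; differentiation and fusion genes mostly lie above the diagonal, with summed levels of 19857 against 4179 CPM in control and 8950 against 2313 CPM in hypothyroid muscle.

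*Pax7*, *Myf5*, *Myod1*, and *Myog* had most of their UMIs in progenitor-like cells, whereas *Msc* had most of its UMIs outside them. Of all UMIs in the first runs, progenitor-like cells held 231 of 298 (77.5%) for *Pax7*, 570 of 694 (82.1%) for *Myf5*, 3808 of 5502 (69.2%) for *Myod1*, and 729 of 1164 (62.6%) for *Myog*. For *Msc* they held 645 of 2302 (28.0%), while fibro-adipogenic progenitor (FAP)-like cells held 1073 (46.6%) in 420 cells and the unnamed cluster led by *Ltbp2* and *Tnc* held 389 (16.9%) in 191 cells. Per UMI of the class, *Msc* was at 124 CPM in progenitor-like, 44.1 CPM in FAP-like, 22.4 CPM in *Ltbp2* and *Tnc*, 12.9 CPM in endothelial-like, and 9.21 CPM in tenocyte-like cells. B-like cells had 0 *Msc* UMIs. In thinned cells 4.96% of FAP-like and 0.414% of T/NK-like cells held *Msc*, so the FAP-like share was the higher one.

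*Msc* in FAP-like cells differed between diets in another order than in progenitor-like cells. It was 79.8, 12.9, and 29.3 CPM in control and 48.2, 28.0, and 42.4 CPM in hypothyroid FAP-like cells at 0, 5, and 14 dpi, so that both diets were highest in uninjured muscle. The ratio of hypothyroid to control was 0.604 (0.466 to 0.774) at 0 dpi, 2.17 (0.744 to 6.70) at 5 dpi, and 1.45 (1.23 to 1.70) at 14 dpi. When such cells of another file were left out it was 3.15 (0.908 to 13.8, 10 against 4 UMIs) at 5 dpi and 1.08 (0.830 to 1.40) at 14 dpi, an interval that held 1. At 0 dpi the ratio was thus below 1 in FAP-like cells and above 1, at 2.52, in progenitor-like cells. The high level of uninjured control muscle lay in the FAP-like cluster led by *Csf1* and *Gfpt2*, at 100.04 CPM, against 21.8 CPM in that led by *Abca8a* and *Abca9*. In hypothyroid muscle these clusters stood at 56.3 and 29.3 CPM. The cluster led by *Ltbp2* and *Tnc* belonged to 5 dpi, with 15.9 CPM (84 UMIs) in control and 25.01 CPM (298 UMIs) in hypothyroid muscle.

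**Figure D5:**
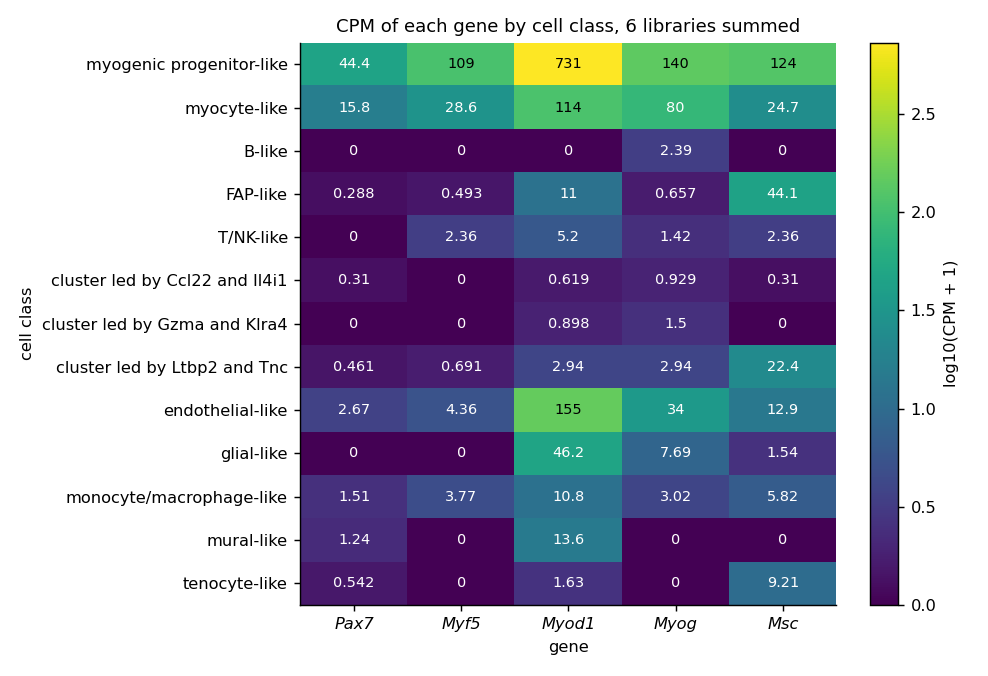
Level of the 5 genes in 13 cell classes, all libraries summed, as a heat map of log10(CPM + 1) with the CPM printed in each field. Progenitor-like cells are highest for each gene (*Myod1* 731 CPM, *Myog* 140 CPM, *Msc* 124 CPM, *Myf5* 109 CPM, *Pax7* 44.4 CPM); *Myod1* also stands at 155 CPM in endothelial-like and *Msc* at 44.1 CPM in FAP-like cells.

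Endothelial-like cells held 1100 of the 5502 *Myod1* UMIs (19.99%), in 78 of 1441 cells, of which 76 came from 14 dpi. By library the count was 0, 4, and 631 UMIs in control and 0, 0, and 465 UMIs in hypothyroid cells, or 171 and 250.2 CPM at 14 dpi. The hypothyroid count at 14 dpi was 150 UMIs, or 257 CPM in 93 cells, without those found in another file. It was uneven, since 34 cells with at least 10 *Myod1* UMIs held 989 of the 1100. At 14 dpi the endothelial-like cells with *Myod1* had a median of 13647.5 UMIs, against 2245 in those without, and 84.2% against 10.7% of them held at least 3 myogenic markers. Their endothelial markers were summed to 8618 CPM, against 15655 CPM in the cells without *Myod1*. *Myog* showed the same place, with 242 UMIs in 12 endothelial-like cells, 225 of them in 5 cells. At 14 dpi control endothelial-like cells held 62 of these UMIs (16.8 CPM) and hypothyroid ones 172 (92.5 CPM). Without those found in another file the hypothyroid count was 126 UMIs in 3 cells, or 216 CPM, a ratio to control of 12.9 (9.42 to 17.7). Of these 126 UMIs, 124 came from 1 cell. Whether such cells were droplets with more than 1 cell was not tested. FAP-like cells held 268 *Myod1* UMIs in 46 cells, 81 of them in 1 cell. Myocyte-like cells, rich in sarcomere transcripts, had *Myog* at 80.0 CPM, *Myod1* at 113.5 CPM, *Myf5* at 28.6 CPM, *Msc* at 24.7 CPM, and *Pax7* at 15.8 CPM over all libraries. Their *Myog* was higher in hypothyroid than in control muscle after injury, unlike that of progenitor-like cells at 5 dpi. It was 475 against 26.4 CPM at 5 dpi (15 against 2 UMIs), a ratio of 18.0 (4.19 to 162). At 14 dpi it was 273 against 67.4 CPM (32 against 29 UMIs), a ratio of 4.05 (2.37 to 6.93). These myocyte-like values include the cells found in another file.

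The partners and opponents of these factors were read in the same pools of progenitor-like cells, from lists of genes with a known role. E proteins, the bHLH partners, had a median ratio of hypothyroid to control of 0.527 at 5 dpi, with 1 of 3 past 2-fold, *Tcf4* at 0.498 (0.442 to 0.560). Across days in control muscle all 3 E proteins were at least 2-fold higher at 5 than at 0 dpi, beside 31.6% of all genes tested. *Tcf4* was 2.85-fold (1.88 to 4.54) higher, and *Tcf3* had only 1 UMI at 0 dpi. In hypothyroid muscle 0 of 3 were higher, beside 17.2% of all genes tested. Of inhibitors and competing factors at 5 dpi, 1 of 12 was higher in hypothyroid cells, *Snai1* at 2.57, and 1 was lower, the Notch target *Heyl* at 0.277. *Id2*, an HLH protein that binds E proteins, stood at 0.0754 at 0 dpi (3 against 54 UMIs), and *Mdfic*, which encodes an inhibitor of the MyoD family, at 0.249 at 14 dpi. The last was 0.299 (4 against 42 UMIs) without the cells found in another file. Among cooperating and upstream factors, 8 of 15 were lower in hypothyroid cells at 5 dpi, with a median of 0.487 and *Mef2c* at 0.0680 (0.0295 to 0.139). At 14 dpi 0 of 4 passed 2-fold. Of all genes tested, 3.3% were higher and 9.85% lower in hypothyroid cells at 5 dpi, and 15% passed 2-fold either way at 14 dpi.

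Differentiation and fusion genes, like *Myog*, were lower in hypothyroid cells at 5 dpi, and a link between them and *Myog* was not tested. The *Myog* difference rested on deeply sequenced cells, and the lists were read only with these cells kept in. At 5 dpi 18 of 29 differentiation and fusion genes were lower in hypothyroid cells, with a median ratio of 0.310. Their summed levels were 2635 against 6478 CPM, with *Myh3*, the embryonic myosin gene, at 0.0358 and *Acta1* at 0.124. At 0 dpi 6 of 8 were higher in hypothyroid cells, with *Acta1* at 6.29 and the creatine kinase gene *Ckm* at 5.35. Myocyte markers, among them *Acta1* and *Ckm*, also stood apart there, at 11838 CPM in the hypothyroid and 2332 CPM in the control pool. They stood at 338 against 2037 CPM at 5 dpi and at 1824 against 10350 CPM at 14 dpi. Their part in the differences of the 3 days was not tested. At 14 dpi 5 differentiation and fusion genes were higher and 7 lower of 18, among them *Tnnt2* at 13.3 and *Myl1* at 0.117. Without the cells found in another file 0 were higher and 8 lower of 14, the median moved from 1.003 to 0.449, *Tnnt2* had 0 hypothyroid and 2 control UMIs, and *Myl1* stood at 0.114. Stem cell genes were lower for 5 of 14 at 5 dpi, with a median of 0.596 and *Chodl* at 0.268, and at 14 dpi 3 of 12 were higher and 1 was lower, with *Peg3* at 2.48, *Notch1* at 2.42, and the syndecan gene *Sdc4* at 0.478. These were, with the cells found in another file left out, 3.08, 2.28 (0.797 to 6.23), and 0.708 (0.617 to 0.811), with 1 higher and 0 lower of 8. Proliferation genes were lower for 7 of 20 at 5 dpi, with a median of 0.552 and the replication gene *Mcm2* at 0.261, and at 14 dpi 3 of 6 were higher, with *Rrm2*, a ribonucleotide reductase gene, at 5.51, and 1 was lower, the cyclin gene *Ccna2* at 0.389 (0.158 to 0.878). Leaving out the cells found in another file, 5 of 20 were lower at 5 dpi, and at 14 dpi 1 was higher and 1 lower of 4, with *Rrm2* at 1.88 (0.292 to 9.67, 3 against 5 UMIs) and *Ccna2* at 0.998 (0.360 to 2.42). At 5 dpi the median of all genes was 0.811, as given above, so a list median below 1 is read against that value. The counts past 2-fold are read against the shares of all genes. These were 6.02% higher and 8% lower at 0 dpi, 3.3% and 9.85% at 5 dpi, and 6.92% and 8.06% at 14 dpi. Without the cells found in another file, 12.9% and 17.2% passed 2-fold either way at 5 and 14 dpi.

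Genes with the pattern most like each factor were sought over 51 pools of 1 cell class in 1 library, by Pearson correlation of log2(CPM + 1) among 12343 genes. The pools share libraries and differ in depth, and the values are descriptions. *Pax7* was most like *Ankrd1* (r = 0.834), *Pde1c* (0.815), *Hs6st2* (0.808), *Serinc2* (0.775), and the growth factor receptor gene *Fgfr4* (0.763). *Myf5* was most like *Hs6st2* (0.867), *Fgfr4* (0.852), the M-cadherin gene *Cdh15* (0.831), *Pde1c* (0.831), and *Ankrd1* (0.829), so that 4 of its 5 genes were also among those of *Pax7*. *Myod1* was most like *Gal* (0.777), *Asb5* (0.772), *Arpp21* (0.760), *Hs6st2* (0.750), and *Pde1c* (0.744). *Myog* had its own set, with *Tnnt2* (0.796), the fusion gene *Mymk* (0.775), the acetylcholine receptor gene *Chrna1* (0.773), the fusion gene *Mymx* (0.754), and *Cdh15* (0.719). *Msc* was most like *Gxylt2* (0.773), *Musk* (0.761), *Sox9* (0.758), *Gpx3* (0.753), and *Frmd6* (0.749). Among the factors themselves, *Pax7* and *Myf5* were the most alike (0.805), followed by *Myf5* and *Myod1* (0.751), and *Myog* and *Msc* were the least alike (0.299).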

How the data were processed

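Cells of TAM were captured with a 10x V3 Single Cell 3′ kit, 1 library per group. According to the submitters' processing notes, reads were processed with Partek and Cell Ranger on mm39. The deposited values are log2(CPM + 1) per cell, as normalized by the authors after their filters on cells. CPM summed to between 999974.6 and 1000027.6 in each cell. UMI counts were recovered from the deposited values with 1 UMI set to the value that occurred most often, among those above 0, in that cell, and 99.935% of 22115901 values came out whole, within 0.05 UMI plus 0.05% of the value. The 9062 columns after the first run of each file were not used, since their condition is unknown. The first run was taken to belong to the diet and day on the label of its file, which could not be checked. No count test was run, since each combination of diet and day was 1 library, and the counts were summed and compared as ratios.

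Clustering left out the 5 factors and used the 2000 genes of highest variability, 20 principal components, 15 neighbours, and the Leiden method at resolution 0.3, and some clusters again at 1.0. The thinning of cells used seed 1. A cluster was named from a marker list when 3 or more of its genes were found in at least 25% of the cells and were 2-fold or more above the other cells. The tools were scanpy 1.11.5, igraph 0.11.9, scipy 1.17.1, numpy 2.4.6, pandas 2.3.3, and matplotlib 3.10.9 in Python 3.11.15. The ratio step was tested on simulated data.

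Beside the 5 factors, the genes named are at most 2 per list, comparison, and direction, ranked by the end of the interval nearest 1 and having 20 UMIs or more in the higher pool, and the 5 genes most alike to each factor among genes with at least 100 UMIs, over pools of at least 20 cells. The genes leading a cluster are given as labels. The factors and lists were chosen with earlier results of these data known. *Hey2*, *Tcf21*, *Pax3*, *Pitx3*, *Calcr*, *Chrnd*, *Retnlg*, and *Cxcr2* of these lists are not analysed here. Genes were not compared with each other in level, since 3′ counts are not a measure per length. Alternatives tried were another average over cells, all columns, other clusterings, a marker gate, another rule for 1 UMI, other depths of thinning, and leaving out deep cells, the top cell, or cells of some kinds.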

Additional observations from a re-analysis of the deposited data

Results flagged for a closer look

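For 3 of the genes the ratio of hypothyroid to control in progenitor-like cells stood on opposite sides of 1 on different days, and the difference between the days was not tested. *Pax7* was 4.75 times the control level at 14 dpi and 0.407 times at 5 dpi, and the former was 3.92 (0.844 to 19.8) without the cells that also stood in another file. *Myog* was at least 4.75 times the control level at 14 dpi, counted against 3 UMIs, and 0.132 times at 5 dpi. The latter was 1.01 (0.521 to 1.97) without cells over 8000 UMIs, and both libraries had 0 *Myog* UMIs at 14 dpi without the cells that also stood in another file. *Msc* was 2.52 times the control level at 0 dpi, 0.573 times at 5 dpi, and 0.574 times at 14 dpi, the last being 1.06 without the cells that also stood in another file.

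The 9062 columns outside the first runs held 7382 that were not found in any first run, whose condition is unknown and for which there are no control samples. *Pax7* had 112 UMIs there in 62 cells (0.840%), *Myf5* 196 UMIs in 88 cells, *Myod1* 4954 UMIs in 329 cells (4.46%), *Myog* 622 UMIs in 45 cells, and *Msc* 1609 UMIs in 524 cells (7.10%). All 5 counts were above 3 UMIs, the limit that a count of 0 allows.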

How the results depend on the processing

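Ratios are of hypothyroid to control, and the cause of these shifts was not tested. *Myod1* stayed below 1 on every day in all alternatives (0.151 to 0.713 at 0 dpi, 0.173 to 0.450 at 5 dpi, 0.191 to 0.621 at 14 dpi), as did *Pax7* at 5 dpi (0.377 to 0.744), while *Myf5* at 5 dpi (1.31 to 2.96), *Msc* at 0 dpi (1.89 to 10.5), and *Pax7* at 14 dpi (1.72 to 6.76) stayed above 1. Of 159 alternative ratios, 114 stayed within the interval of the reported ratio, and 8 stood on the other side of 1 (2 each for *Msc* at 14 dpi and *Pax7* at 0 dpi, and 1 each for *Msc* and *Myog* at 5 dpi and *Myf5* and *Myog* at 14 dpi). The depth and the 18 to 173 progenitor-like cells per library limit the precision, and 2 to 100 *Pax7* UMIs and 0 to 542 *Myog* UMIs stood in each.

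The mean of the cells' CPM gave 3.68 for *Myf5* at 0 dpi, 0.173 and 0.548 for *Myod1* at 5 and 14 dpi, and 0.275 for *Myog* at 5 dpi. The mean of the cells' log2 values gave 0.151 and 0.191 for *Myod1* at 0 and 14 dpi, 10.5 and 0.871 for *Msc* at 0 and 14 dpi, 2.39 for *Myf5* at 5 dpi, and 0.513 and 1.33 for *Myog* at 5 and 14 dpi. With all columns of each file, *Pax7* at 0 dpi turned to 1.11 and *Myog* at 14 dpi to 0.177, with 0.590 for *Pax7* at 5 dpi, 0.279 and 0.415 for *Myod1* and 1.89 and 0.947 for *Msc* at 0 and 5 dpi, and 0.365 for *Myog* at 5 dpi. Clustering at resolution 0.6 turned *Pax7* at 0 dpi to 1.34 and gave 0.165 for *Myog* at 5 dpi, which was 0.169 with 30 components and 0.185 with the smallest value as 1 UMI. Cells chosen by a marker gate gave 3.25 and 2.96 for *Myf5* at 0 and 5 dpi, 0.713, 0.385, and 0.397 for *Myod1* at 0, 5, and 14 dpi, 5.71 and 1.10 for *Msc* at 0 and 5 dpi, 0.744 for *Pax7* at 5 dpi, and 0.298 and 2.41 for *Myog* at 5 and 14 dpi. Without cells over 8000 UMIs *Myog* at 5 dpi turned to 1.01, *Myod1* was 0.513, 0.221, and 0.621 at 0, 5, and 14 dpi, and *Msc* was 0.402 and 1.16 at 5 and 14 dpi. Without the top cell *Myog* at 14 dpi was at least 1.60. Of 4 alternatives added after seeing the data, the main sub-clusters alone gave 0.450 and 0.572 for *Myod1* at 5 and 14 dpi, leaving out cells that also stood in another file gave 1.06 for *Msc* at 14 dpi (other results without these cells stand in the report), and leaving out cells with at least 2 endothelial markers gave 0.523 for *Myod1* and at least 1.72 for *Myog* at 14 dpi.

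Thinning to 1000 UMIs gave shares with at least 2 of the factors of 26.5%, 8.60%, and 15.6% in control cells at 0, 5, and 14 dpi and 2.89% in hypothyroid cells at 5 dpi. *Pax7* was then at 7.53% in control cells at 5 dpi and 0% in hypothyroid cells at 0 and 14 dpi, *Msc* at 4.30% and 12.99% in control cells at 5 and 14 dpi and 1.73% in hypothyroid cells at 5 dpi, *Myf5* at 3.90% in control cells at 14 dpi and 16.2% in hypothyroid cells at 5 dpi, and *Myod1* at 5.78% in the latter. Without thinning, control cells at 5 dpi were at 46.2% for *Pax7*, 40.9% for *Myf5*, 45.2% for *Myod1*, 30.1% for *Msc*, and 61.3% for at least 2 factors, and at 14 dpi at 37.2% for *Msc* and 42.3% for at least 2. Hypothyroid cells at 5 dpi were at 35.3%, 58.4%, 34.1%, 11.6%, and 23.7% for *Pax7*, *Myf5*, *Myod1*, *Myog*, and *Msc* and 49.1% for at least 2, and at 14 dpi at 21.4% for *Pax7*, 38.1% for *Msc*, and 47.6% for at least 2.

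Genes past 2-fold between diets were 205, 1136, and 595 at 0, 5, and 14 dpi. With a minimum of 100 UMIs for the higher pool, where fewer genes are tested, they were 20 of 282, 293 of 3906, and 88 of 846, and between days 964 of 2111 (5 over 0 dpi) and 599 of 2139 (14 over 5 dpi) in control and 1837 of 3896 and 517 of 3896 in hypothyroid muscle. With at least 1 UMI in both pools they were 1992 of 6399, 2436 of 11418, and 2545 of 9776 between diets and 3928 of 10223 (control) and 2780 of 10500 (hypothyroid) for 14 over 5 dpi.

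No value could be had for *Myog* at 0 dpi (0 UMIs in both pools), for *Myog* at 14 dpi from the mean of the cells' CPM or without deep or other-file cells or in the main sub-cluster, or for *Pax7* at 14 dpi in the main sub-cluster (2 against 0 UMIs). No paired analysis was possible because the results come from no test, each combination of diet and day being 1 library, which also left no replicate to leave out.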
